A study of Caenorhabditis elegans with 12 samples.

Results

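The comparison set every array from worms that flew against every array from worms that stayed on the ground, in a study of the nematode Caenorhabditis elegans on the Shenzhou-8 mission. All 12 of the 12 arrays of the series entered it, 6 flown and 6 ground, chosen by the condition named for each sample. Each array measured total RNA from 1 strain under 1 condition, labelled with Cy3, on a NimbleGen single-colour expression array, and gave an intensity for 20018 genes. The contrast joins what both flown groups went through (launch, space radiation, landing) and does not separate those factors.

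The flown groups were the spaceflight static condition, in microgravity with a measured dose of 1.92 mGy, and the spaceflight 1g-centrifugal condition, which supplied gravity on board and received 2.27 mGy. The ground groups were the ground control, run in a static slot of the same hardware 2 days later, and the transport control, incubated at Dalian Maritime University and never taken to the launch site. Dauer larvae were loaded about 10 h before launch, the mission and the ground control lasted 16.5 days at 23 °C, and collection followed 7 h later. For the transport control, the labels used here do not state duration, container or time of collection, so those differences and transport itself cannot be told apart. Every condition held 3 arrays, with 1 each of the wild type N2, of LS292, which carries dys-1(cx18) I, and of MT4930, which carries ced-1(n1995) I. dys-1 encodes dystrophin and ced-1 a receptor for the engulfment of dying cells. In every group 2 of the 3 arrays thus come from mutants, and no condition holds more than 1 array of a strain. The design text describes technical repeats without repeats of the sample, so the p-values below cover only how far these arrays scatter.

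The dauer is an alternative larval stage that does not feed and that wears a cuticle of its own. When food returns, the worm leaves that state, moults and becomes a reproductive adult. Each stage builds its cuticle from different collagens made by the epidermis, and an adult hermaphrodite makes first sperm, then oocytes, and yolk proteins in the intestine. Levels of stage-bound genes in a whole-worm sample therefore follow how far the animals have developed, and more animals of a stage and more RNA per animal cannot be told apart here.

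The rule for the comparison was strict. A gene had to pass an adjusted p of 0.05 with 1 sign in the flown mean against the ground mean, against the ground control alone and against the transport control alone, each in a limma fit with strain as a factor. Of 20018 genes, 1189 passed the first contrast (5.94%), 857 of them higher in the flown arrays (4.28% of genes) and 332 lower (1.66%). Against the transport control alone 2506 passed (12.5%), 1416 higher (7.07%) and 1090 lower (5.45%). Against the ground control alone 8 passed (0.04%), 5 higher (0.025%) and 3 lower (0.015%). The whole rule left 5 genes (0.025%), 4 higher (0.02%) and 1 lower (0.005%). They were the cuticle collagens col-129, col-143 and col-81 and the gene spig-20, all higher after flight, and the body-shape gene dpy-1, which was lower.

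The count of 1189 holds for arrays given their condition. The differences between the ground groups and between the flown conditions are then left out of the spread. With flown or ground as a single factor, both differences count as spread. There 0 genes passed after adjustment and 2864 had an unadjusted p under 0.05, against 3847 in the fit with 4 conditions. The ground groups themselves differed in 1069 genes (5.34%), 619 higher (3.09%) and 450 lower (2.25%) in the ground control. The contrasts against each ground group share the 6 flown arrays and are not independent. Single arrays moved the count of 1189: it was 646 without the MT4930 static array, 740 without the MT4930 transport control, 773 without the N2 static array, 775 without the LS292 centrifuged array and 1622 without the N2 transport control. Against the transport control, 1066 genes passed without its MT4930 array and 1348 without its LS292 array. Between the ground groups, 493 passed without the MT4930 transport control, 591 and 634 without the MT4930 or LS292 ground control and 1783 without the N2 ground control.

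col-129 encodes a collagen of the cuticle, the worm's outer covering. Its log2 intensity in N2, LS292 and MT4930, an order kept below, was 14.76, 13.38 and 14.97 in static flight, 13.71, 13.09 and 13.42 in centrifuged flight, 12.22, 11.77 and 13.05 in the ground control and 9.79, 9.10 and 10.06 in the transport control. All 6 flown arrays lay above all 6 ground arrays, though the lowest flown array, LS292 in the centrifuge, was only just above the MT4930 ground control. The flown mean was 2.89 ± 0.19 log2 units (SE, 6 against 6 arrays) above the ground mean, 1.54 ± 0.23 above the ground control (2.91-fold, limma adjusted p = 0.0446) and 4.24 ± 0.23 above the transport control (18.9-fold, adjusted p = 4.83e-07).

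col-81, another cuticle collagen, ran close to it. Its values were 14.52, 13.06 and 14.91 in static flight, 13.41, 13.00 and 13.38 in centrifuged flight, 12.13, 11.51 and 12.91 in the ground control and 9.89, 9.21 and 10.08 in the transport control. The flown and ground arrays again did not overlap, and the MT4930 ground control lay just under the lowest flown value. The difference was 1.53 ± 0.24 against the ground control (limma adjusted p = 0.0446) and 3.99 ± 0.24 against the transport control (adjusted p = 9.66e-07). Probes of near-identical collagens can share signal, and whether these genes do was not tested.

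col-143 showed the widest gap to the ground control among the 4 genes that were higher. It stood at 13.90, 12.64 and 14.18 in static flight, 13.51, 12.75 and 13.33 in centrifuged flight, 10.75, 11.53 and 11.66 in the ground control and 9.44, 8.90 and 10.90 in the transport control. The lowest flown array, 12.64, was well above the highest ground array, 11.66. It differed by 2.07 ± 0.32 log2 units from the ground control (4.21-fold, limma adjusted p = 0.0446) and by 3.64 ± 0.32 from the transport control (12.5-fold, adjusted p = 5.81e-06).

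spig-20 was the fourth. It read 10.73, 9.57 and 10.94 in static flight, 9.91, 9.39 and 9.41 in centrifuged flight, 8.95, 7.64 and 8.62 in the ground control and 6.82, 6.59 and 6.55 in the transport control. The groups did not overlap. The flown mean exceeded the ground control by 1.59 ± 0.24 (limma adjusted p = 0.0446) and the transport control by 3.34 ± 0.24 (adjusted p = 2.09e-06).

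dpy-1 belongs to the dumpy genes, named for the short, stout body of their mutants. It was at 8.19, 8.03 and 8.05 in static flight, 8.63, 8.12 and 8.19 in centrifuged flight, 9.79, 9.50 and 10.54 in the ground control and 9.49, 9.03 and 9.74 in the transport control. Every flown array was below every ground array, and unlike the collagens dpy-1 did not pass between the ground groups (ground control minus transport control 0.53, limma adjusted p = 0.28). It fell by 1.74 ± 0.22 log2 units against the ground control (3.35-fold, adjusted p = 0.0172) and by 1.22 ± 0.22 against the transport control (2.33-fold, adjusted p = 0.00219).

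**Figure D1:**
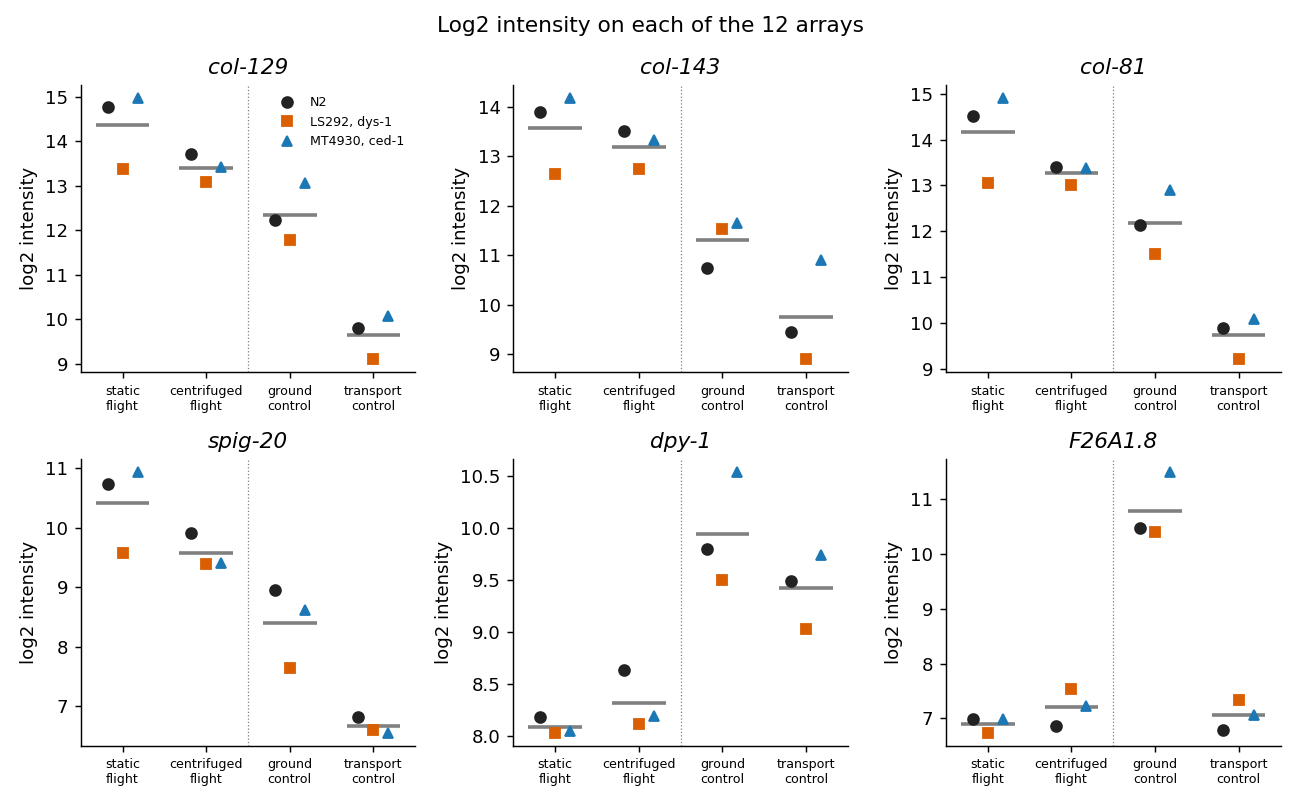
Log2 intensity on each array, by condition (x axis) and strain (marker), for the 5 genes that passed against each ground group and for F26A1.8, which differed from the ground control alone; grey bars are condition means. In the first 5 panels the 6 flown arrays do not overlap the 6 ground arrays, while in the last the ground control stands apart from the other 3 conditions.

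In the 4 genes that were higher, the ground control lay between the flown arrays and the transport control. Ground control minus transport control was 2.69 log2 units for col-129, 2.46 for col-81, 1.74 for spig-20 and 1.57 for col-143, and all 4 passed there too (limma adjusted p from 9.3e-05 to 0.0235). Static flight was also above centrifuged flight in these genes, by 0.97 ± 0.27 for col-129, 0.90 ± 0.27 for col-81, 0.84 ± 0.28 for spig-20 and 0.38 ± 0.37 for col-143. None of the 4 passed that test (limma adjusted p 0.153 to 0.734). Against the ground control taken with a single flown condition, all 5 genes passed for static flight, while for centrifuged flight dpy-1 alone did (adjusted p = 0.0496) and the other 4 had 0.169 to 0.458.

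The values by strain describe genes that these same arrays chose, so a shared direction is no support. Flown minus ground in N2, LS292 and MT4930 was 3.23, 2.80 and 2.64 for col-129, 3.61, 2.48 and 2.47 for col-143, 2.96, 2.67 and 2.65 for col-81, 2.44, 2.37 and 2.59 for spig-20, and −1.23, −1.19 and −2.02 for dpy-1. A test of whether flown minus ground differed between strains passed in 0 genes of the array in limma, with 476 at an unadjusted p under 0.05 and a smallest adjusted p of 0.734. That fit has flown or ground as 1 factor, so differences between the ground groups and between the flown conditions count as spread in it. Its 0 does not show that the strains responded alike.

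Single arrays decided the calls against the ground control. Leaving out 1 array at a time, dpy-1 kept its call in 7 of 12 fits and lost it without the N2 or MT4930 array of static flight, the LS292 array of centrifuged flight, or the N2 or MT4930 array of the ground control (limma adjusted p up to 0.103). col-143 kept it in 3 of 12, col-129 and col-81 in 2, and spig-20 in 1, with adjusted p up to 0.344, and all 4 kept it without the LS292 array of static flight. The number of genes meeting the whole rule ran from 0 to 17 over those fits. It was 0 without any 1 of the 5 arrays named for dpy-1, and 17 without the LS292 ground control. The differences themselves stayed between 1.34 and 1.72 for col-129 and between −1.90 and −1.47 for dpy-1. Against the transport control all 5 genes passed in every one of 29 alternative fits. Over the same 29 fits, the call against the ground control was kept in 19 for dpy-1 and 8 for col-143. It was kept in 7 for col-129, 6 for col-81 and 5 for spig-20. With quantile normalization, median centring, array weights or strain as a random block, dpy-1 alone met the whole rule.

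**Figure D2:**
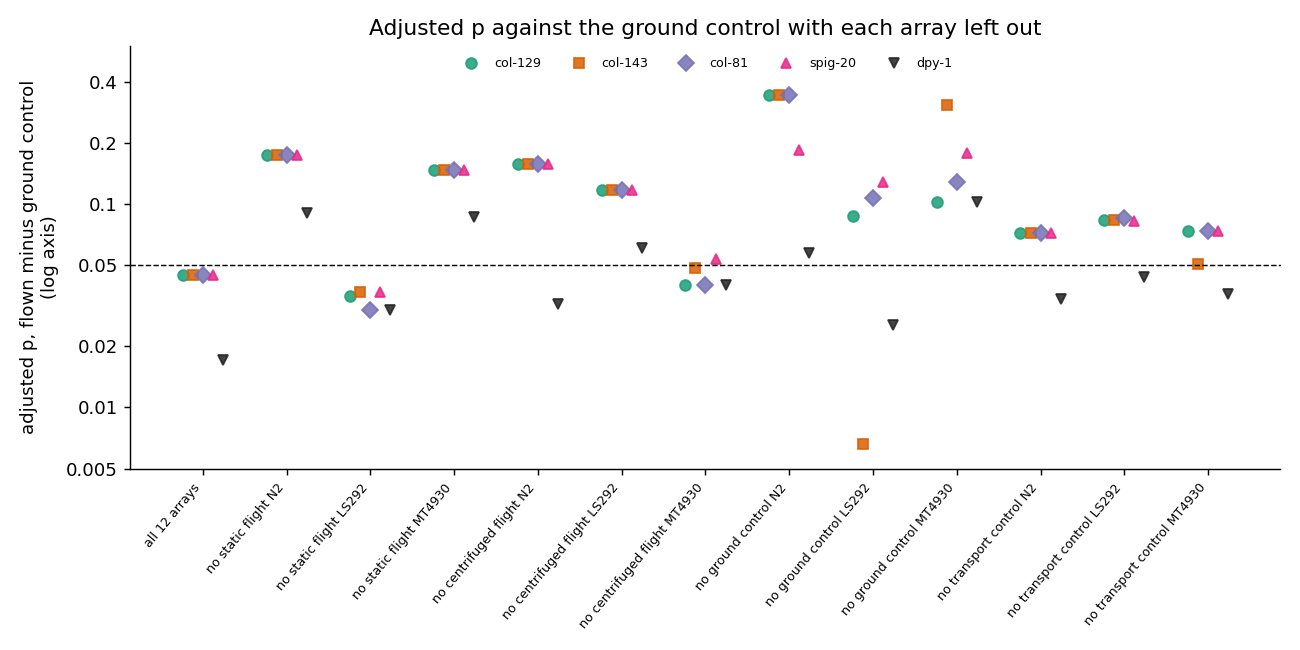
Adjusted p of flown minus ground control (log axis) for the 5 genes with all 12 arrays and with each array left out; the dashed line is 0.05. dpy-1 lies under the line in 7 of the 12 fits and the other 4 genes in 1 to 3 of them.

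Just outside the threshold against the ground control stood more collagens and other genes. The collagens col-184 and col-19 and the gene Y69E1A.5 had an adjusted p of 0.112 against the ground control, the collagen col-8 had 0.141, and dod-23, ZK512.8, vap-2 and the collagen col-176 had 0.18. col-19, a collagen of the adult cuticle, was at 13.57, 12.22 and 13.78 in static flight, 12.85, 12.05 and 12.28 in centrifuged flight, 10.48, 11.21 and 11.26 in the ground control and 7.83, 8.20 and 9.13 in the transport control. Its flown and ground arrays did not overlap, and its difference was 1.81 ± 0.32 from the ground control and 4.41 ± 0.32 from the transport control. Over all genes, 123 (0.614%) had every flown array above every ground array and 40 (0.2%) had every flown array below.

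Below dpy-1, the genes nearest to the rule in the lower direction failed against the ground control. They were col-176 (−1.13 ± 0.22 against the ground control and −1.61 ± 0.22 against the transport control), the insulin-like peptide ins-4 (−1.15 ± 0.25 and −1.91 ± 0.25), Y49G5A.1 (−1.08 ± 0.24 and −1.67 ± 0.24) and the C-type lectin clec-174 (−1.09 ± 0.24 and −2.54 ± 0.24). Their limma adjusted p against the ground control was 0.18 for col-176 and 0.191 for the others. ins-4 was at 7.67, 7.20 and 6.83 in static flight, 8.18, 7.20 and 8.17 in centrifuged flight, 8.65, 8.78 and 8.65 in the ground control and 9.39, 9.10 and 9.85 in the transport control. Its groups did not overlap. Y49G5A.1 did overlap, since static flight reached 8.59 while the LS292 ground control was at 7.67.

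The genes that passed flown against ground did so mostly through the transport control. Of the 857 higher genes, 821 passed against the transport control only, 1 against the ground control only, 4 against both and 31 against neither. Of the 332 lower genes the numbers were 314, 1, 1 and 16. The median difference of the 857 was 1.45 log2 units against the transport control and 0.49 against the ground control, and of the 332 it was −1.36 and −0.48. Direction was shared more widely than the calls, because 832 of the 857 and 311 of the 332 had the same sign against the ground control; the contrast that chose these genes already contains both differences. In 444 of the 857 the ground control also passed above the transport control.

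By condition, the 857 stood a median 0.83 above the ground control in static flight and 0.13 in centrifuged flight. Against the transport control the medians were 1.84 and 1.09. The 332 lower genes had −0.56 and −0.34 against the ground control and −1.50 and −1.23 against the transport control. The difference between static and centrifuged flight, tested gene by gene, passed in 1 gene of the array (0.005%), T27E7.1, with 2394 at an unadjusted p under 0.05.

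**Figure D3:**
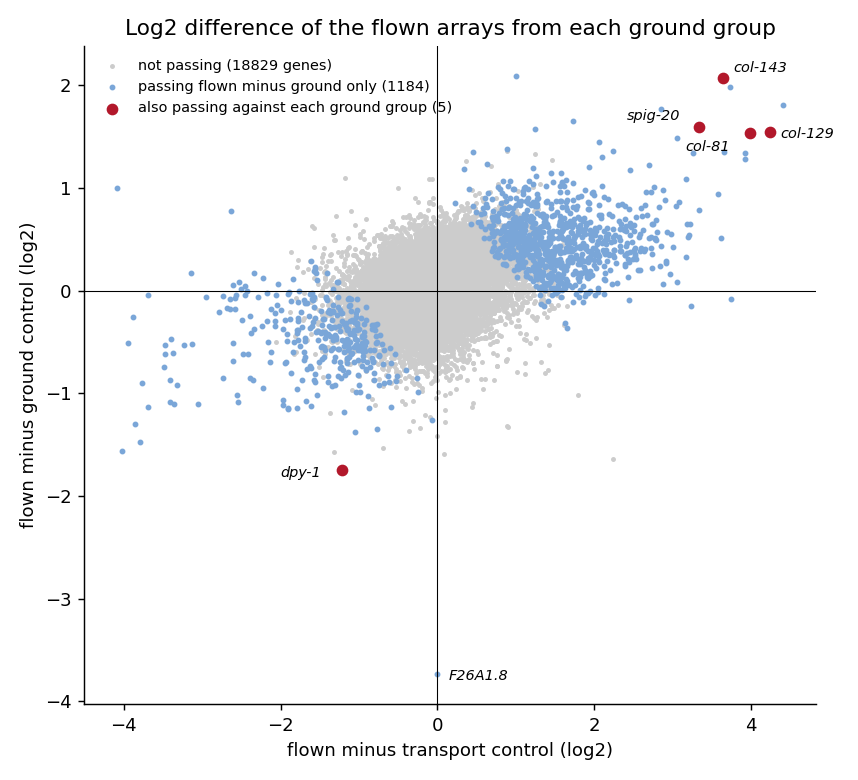
Each point is a gene, with the log2 difference of the 6 flown arrays from the 3 transport control arrays on the x axis and from the 3 ground control arrays on the y axis. Genes passing flown minus ground (blue) spread far along the x axis and little along the y axis; the 5 genes passing every contrast are red.

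The genes with the smallest p that failed against the ground control show this pattern singly. col-85, a cuticle collagen, was at 8.01, 8.65 and 8.74 in static flight, 8.29, 8.85 and 9.01 in centrifuged flight, 8.80, 8.98 and 9.40 in the ground control and 11.69, 12.05 and 12.24 in the transport control. The transport control alone was high, and the ground control overlapped the flown arrays. The difference was −3.40 ± 0.18 from the transport control and −0.47 ± 0.18 from the ground control (limma adjusted p = 4.83e-07 and 0.53). C39B5.5, the adult collagen col-7, C15C6.2 and col-19 were higher after flight by 3.05 to 4.41 against the transport control and by 0.82 to 1.81 against the ground control, where their adjusted p was 0.112 to 0.251.

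The opposite case was rare. F26A1.8 was at 6.98, 6.74 and 6.98 in static flight, 6.87, 7.53 and 7.23 in centrifuged flight, 10.47, 10.40 and 11.50 in the ground control and 6.78, 7.33 and 7.05 in the transport control. The ground control alone was high, by 3.74 ± 0.24 over the flown arrays (13.3-fold, limma adjusted p = 9.88e-06), while the flown arrays and the transport control differed by 0.00 ± 0.24. C54F6.5 stood at 9.97, 9.47 and 9.84 in static flight, 10.86, 10.48 and 10.57 in centrifuged flight, 8.73, 8.64 and 9.19 in the ground control and 9.65, 9.35 and 10.22 in the transport control. It passed against the ground control (1.35 ± 0.20, adjusted p = 0.0446), a call kept in 1 of 12 fits with an array left out, and not against the transport control (0.46 ± 0.20, adjusted p = 0.161).

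Others of this kind failed against both ground groups taken alone while passing their mean. far-3, a fatty acid and retinol binding protein, differed by −1.35 ± 0.27 from the ground control and −0.77 ± 0.27 from the transport control. The metallothionein mtl-1, a metal-binding protein induced by stress, differed by 0.95 ± 0.22 and 0.64 ± 0.22, and the collagen col-95 by 2.09 ± 0.43 and 1.00 ± 0.43. Against flown minus ground, mtl-1 kept its call in 10 of 12 fits with an array left out and col-95 in 7.

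A wider tier was described beside the strict rule. It took genes past the adjusted threshold in flown minus ground that also had an unadjusted p under 0.05 with 1 sign against each ground group, and held 546 genes (2.73%), of which 412 were higher (2.06%) and 134 lower (0.669%). Their median difference was 0.67 from the ground control and 1.37 from the transport control for the higher genes, and −0.71 and −1.18 for the lower. Split by flown condition, the higher genes stood a median 1.03 above the ground control in static flight and 0.36 in centrifuged flight. With each flown condition set against each ground condition, 80 genes were higher and 35 lower with an unadjusted p under 0.05 in all 4 contrasts, or 0.4% and 0.175% of genes. dpy-1 alone passed all 4 after adjustment.

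Gene lists of known function were described by the same 3 steps, with the median difference of all 20018 genes at 0.01 for flown minus ground, 0.05 against the ground control and 0.00 against the transport control. In what follows, a member "passed" if its adjusted p in flown minus ground was under 0.05, and "met the wider tier" as defined above. Cuticle collagens moved in both directions. Of 177, 40 passed higher (22.6%, beside 4.28% of all genes) and 28 lower (15.8%, beside 1.66%), 22 and 14 met the wider tier, and the list's median was 0.13. With 1 array left out at a time 37 to 46 passed higher and 22 to 27 lower. The lower members of the wider tier were less stable, at 2 without the MT4930 ground control and 7 without the N2 ground control, the N2 centrifuged array or the MT4930 static array.

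Collagens of the adult cuticle were a smaller list of 7, of which 6 passed higher (85.7%, beside 4.28% of all genes). With 1 array left out, 6 passed higher in every fit. Against the transport control alone 6 passed higher, beside 7.07% of all genes, and against the ground control alone 0 did. col-62 was at 12.33, 11.06 and 12.30 in static flight, 11.29, 10.94 and 10.84 in centrifuged flight, 10.00, 9.13 and 11.22 in the ground control and 7.59, 7.18 and 7.86 in the transport control. All flown arrays were above the transport control, and the MT4930 ground control overlapped the centrifuged arrays. The list's median was 2.16 against the transport control and 0.50 against the ground control, where static flight gave 1.22 and centrifuged flight −0.13. The median against the ground control ran from −0.07 to 0.95 with 1 array left out. Among the members, col-63 had 1.22 in static flight and −0.21 in centrifuged flight against the ground control.

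Some cuticle genes of the dauer and of the moult passed lower, while the medians of the lists that hold them stayed near 0. Of 14 dauer markers 1 passed higher (7.14%, beside 4.28% of all genes) and 3 lower (21.4%, beside 1.66%). The list's median was 0.00 for flown minus ground. cut-1, a cuticlin of the dauer larva, was at 8.17, 11.05 and 8.07 in static flight, 9.57, 10.80 and 11.02 in centrifuged flight, 10.91, 10.64 and 11.69 in the ground control and 13.67, 13.44 and 13.81 in the transport control. The transport control was high throughout, and the LS292 flown arrays and the MT4930 centrifuged array overlapped the ground control. It differed by −3.86 ± 0.50 from the transport control and by −1.30 ± 0.50 from the ground control (limma adjusted p = 0.000137 and 0.538). col-2, a collagen of the dauer stage, differed by −3.36 ± 0.33 and −1.11 ± 0.33.

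Of 53 genes of moulting and cuticlin, 0 passed higher and 4 lower, namely cut-1, cut-6, dpy-6 and cutl-29 (7.55%, beside 1.66% of all genes). The other 49 did not pass, and the list's median was −0.04 for flown minus ground, −0.10 against the ground control and 0.01 against the transport control. dpy-6, a mucin-like protein needed for body shape, was at 8.36, 8.24 and 9.05 in static flight, 8.28, 8.06 and 7.66 in centrifuged flight, 9.29, 9.28 and 9.68 in the ground control and 9.13, 9.07 and 9.26 in the transport control. No flown array reached a ground array, though the MT4930 static array at 9.05 lay just under the LS292 transport control at 9.07. Its difference was −1.14 ± 0.22 from the ground control and −0.88 ± 0.22 from the transport control (limma adjusted p = 0.18 and 0.0193). The cuticlin-like cutl-29 differed by −0.87 ± 0.24 and −0.82 ± 0.24, without overlap between flown and ground arrays. Its flown minus ground call was kept in 7 of 12 fits with an array left out. Ground control minus transport control was 0.26 for dpy-6 and 0.06 for cutl-29.

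The hedgehog-related list had 5 of 84 passing higher (5.95%, near the 4.28% of all genes) and 10 lower (11.9%, beside 1.66%). It is wider than the wrt-, grd- and grl- families, secreted proteins of the epidermis that take part in moulting. In those families 3 of 10, 1 of 16 and 1 of 30 passed higher, and 0, 3 and 7 lower. The ground-like genes grl-20, grl-25, grl-17 and grl-9 led the lower side, with −3.06 to −3.80 against the transport control and −0.61 to −1.48 against the ground control. grl-25 was the most even of them over the flown arrays, at 7.57, 8.29 and 7.70 in static flight and 7.76, 8.12 and 7.44 in centrifuged flight, below 8.78, 8.28 and 9.00 in the ground control and 11.35, 10.70 and 11.62 in the transport control. The LS292 arrays of static flight and ground control were level. Without 1 array the list's higher passes ran from 2 to 6 and its lower passes from 7 to 10. Its 5 lower members in the wider tier numbered 0 without the MT4930 ground control.

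Of 6 vitellogenins, the yolk proteins that carry lipid from the intestine to oocytes, 4 passed higher (66.7%, beside 4.28% of all genes) and 3 met the wider tier. vit-6 was at 12.10, 11.10 and 12.21 in static flight, 11.15, 10.94 and 11.49 in centrifuged flight, 9.66, 10.17 and 10.78 in the ground control and 10.42, 8.30 and 9.47 in the transport control. All flown arrays were above all ground arrays, the nearest being LS292 in the centrifuge and MT4930 in the ground control. It was higher by 1.30 ± 0.33 than the ground control and by 2.10 ± 0.33 than the transport control (limma adjusted p = 0.274 and 0.000655). vit-5 and vit-3 differed from the ground control by 0.94 and 0.74. The list's medians against the ground control were 0.77 for static and 0.40 for centrifuged flight. From 3 to 6 members passed, and 2 to 5 met the wider tier, with 1 array left out. In LS292 the summed vitellogenin intensity went the other way against the ground control, at 17692 there, 15109 in static flight and 12431 in centrifuged flight, beside 5432 in the transport control.

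Of these lists, genes of sperm passed most often, at 55 of 63, or 87.3% beside 4.28% of all genes, and 45 to 56 with 1 array left out. Their excess was mainly over the transport control. The median was 1.75 there and 0.26 against the ground control, where static flight gave 0.56 and centrifuged flight −0.11. msd-2, a small protein with a major sperm protein domain, was at 10.48, 9.88 and 10.62 in static flight, 9.36, 9.18 and 9.85 in centrifuged flight, 8.72, 8.69 and 9.63 in the ground control and 6.58, 6.79 and 7.58 in the transport control. Its MT4930 ground control overlapped the centrifuged arrays. In the wider tier were 15 sperm genes, or 7 without the N2 ground control, led by ssp-34, msd-2, nspd-10 and msd-1, with 0.79 to 0.96 against the ground control. Probes of the major sperm protein family can share signal.

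Oocyte, cell cycle and repair genes had positive medians of flown minus ground, at 0.57, 0.52 and 0.29. Against the ground control these medians were 0.68, 0.63 and 0.39 in static flight and 0.06, 0.07 and 0.13 in centrifuged flight. By strain, the oocyte median of flown minus ground was 0.11 in N2, 0.62 in LS292 and 1.22 in MT4930. Beside 4.28% of all genes, 3 of 35 oocyte and embryo genes passed higher (8.57%), 7 of 27 cell cycle and replication genes (25.9%) and 6 of 45 DNA damage and repair genes (13.3%), with 0 lower in each. Single arrays moved these counts: 1 to 25 oocyte genes, 1 to 12 cell cycle genes and 0 to 9 repair genes passed with 1 array left out, with 25 and 12 reached without the N2 transport control. puf-3, an RNA-binding protein of oocytes, passed in all 12 of those fits, at 0.87 ± 0.30 against the ground control and 1.51 ± 0.30 against the transport control. The replicative helicase subunit mcm-3 passed in 11 (0.55 ± 0.24 and 1.25 ± 0.24), and the recombination gene rad-54.L in 11 (0.60 ± 0.20 and 0.94 ± 0.20).

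Among repair genes the mismatch repair gene mlh-1 had its larger difference from the ground control. It stood at 9.53, 9.51 and 10.28 in static flight, 9.39, 9.22 and 9.41 in centrifuged flight, 8.81, 8.63 and 8.54 in the ground control and 9.43, 8.78 and 8.67 in the transport control. The N2 transport control was as high as the flown arrays. mlh-1 differed by 0.90 ± 0.23 from the ground control and 0.60 ± 0.23 from the transport control (limma adjusted p = 0.281 and 0.107), and it kept its flown minus ground call in 4 of 12 fits. The base excision repair gene exo-3 and parp-1, which builds poly(ADP-ribose) at DNA breaks, passed flown minus ground at 0.96 ± 0.21 and 0.80 ± 0.19. Their difference from the ground control was 0.85 and 0.89 in static flight and 0.14 and 0.37 in centrifuged flight, with adjusted p = 0.35 and 0.46 between the flown conditions.

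Insulin-like peptides and targets of DAF-16, the transcription factor at the end of insulin signalling, were mixed. Of 51 insulin signalling genes 4 passed lower (7.84%, beside 1.66% of all genes), including the peptides ins-4, ins-35 and ins-30, and 0 higher. ins-30 passed against the transport control alone (−1.90 ± 0.21, beside −0.03 ± 0.21 from the ground control). Of 23 DAF-16 targets 3 passed higher (13.0%, beside 4.28%) and 5 lower (21.7%, beside 1.66%). With 1 array left out 2 to 3 passed higher and 2 to 5 lower. All 3 higher ones, and 0 of the lower ones, met the wider tier.

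Of these, dod-23 was at 10.76, 10.03 and 11.13 in static flight, 8.55, 8.03 and 9.04 in centrifuged flight, 7.64, 8.02 and 8.16 in the ground control and 8.96, 6.78 and 7.86 in the transport control. The static arrays stood apart from all others, and the centrifuged arrays overlapped the ground arrays. Its difference from the ground control was 2.70 in static flight and 0.60 in centrifuged flight; the difference between the flown conditions, 2.10, did not pass (limma adjusted p = 0.082). dct-16 was more even, with 1.59 and 0.69.

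Several antimicrobial genes passed against the transport control while lying level with the ground control. Of 112, 11 passed higher and 10 lower (background 4.28% and 1.66%), while 3 and 3 met the wider tier. With 1 array left out 5 to 12 passed higher and 4 to 8 lower. The lysozyme lys-4 was at 13.26, 12.87 and 12.85 in static flight, 13.29, 12.49 and 13.43 in centrifuged flight, 12.91, 13.29 and 13.12 in the ground control and 9.03, 9.42 and 9.43 in the transport control. The ground control lay among the flown arrays, and only the transport control was low. lys-4 differed by 3.74 ± 0.24 from the transport control and by −0.08 ± 0.24 from the ground control. The lysozymes lys-5 (3.06 and 0.08) and ilys-5 (3.24 and −0.15) and the saposin-like spp-20 (−2.40 and −0.25) did the same.

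The gut protease asp-12 was different. It stood at 11.62, 10.94 and 11.78 in static flight, 11.28, 10.54 and 11.04 in centrifuged flight, 9.85, 10.23 and 10.19 in the ground control and 10.32, 9.21 and 10.30 in the transport control. No ground array reached a flown array. Its differences were 1.11 ± 0.23 from the ground control (limma adjusted p = 0.191) and 1.26 ± 0.23 from the transport control (adjusted p = 0.00275), and the ground groups differed by 0.14. It does not stand for its list. Of 27 gut proteases 2 passed higher (7.41%, beside 4.28% of all genes) and 0 lower, or 1 to 2 and 0 to 1 with 1 array left out. The list's median was −0.105 against the ground control and 0.095 against the transport control.

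C-type lectins, a large family of secreted sugar-binding proteins, had 8 of 258 passing higher (3.10%, under the 4.28% of all genes) and 14 lower (5.43%, beside 1.66%). In the wider tier were 2 higher (0.775%, under 2.06%) and 6 lower (2.33%, beside 0.669%), with 6 to 12 and 8 to 18 passing with 1 array left out. clec-174 led the lower side without overlap, at 8.50, 8.16 and 8.23 in static flight, 7.37, 7.33 and 7.91 in centrifuged flight, 8.82, 8.88 and 9.30 in the ground control and 10.88, 10.53 and 9.95 in the transport control. Its centrifuged arrays were all below its static arrays, a difference of 0.76 that did not pass (limma adjusted p = 0.28). clec-72 (−0.62 ± 0.23 from the ground control and −2.42 ± 0.23 from the transport control) and clec-17 (−1.12 ± 0.43 and −1.97 ± 0.43) followed.

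Of 110 neuropeptide genes, 35 passed lower against the transport control alone, where 5.45% of all genes did, and the list's median there was −0.83. Flown minus ground passed in 10, all lower (9.09%, beside 1.66% of all genes). With 1 array left out 3 to 20 passed, and 20 was reached without the N2 transport control. Against the ground control the median was −0.35 in static flight and 0.09 in centrifuged flight. nlp-64 passed in every fit with an array left out, at −1.78 ± 0.27 from the transport control and −0.48 ± 0.27 from the ground control. Among 55 histone genes 3 passed lower (5.45%, beside 1.66%) and 1 higher (1.82%, under 4.28%), or 1 to 6 and 0 to 3 with 1 array left out. The linker histone hil-7 differed by −0.96 ± 0.31 and −1.79 ± 0.31.

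Several groups studied in space biology held 0 genes past the threshold in flown minus ground, where 5.94% of all genes passed. They were 39 genes of the muscle sarcomere, 13 of the dystrophin complex, 23 of apoptosis and engulfment, 24 of heat shock, 28 of autophagy and lysosome, 30 of neurotransmission, 80 of the ribosome and 13 of the TGF-beta pathway of body size. Their medians of flown minus ground lay between −0.22 and 0.03, and against the ground control between −0.04 and 0.14. Against the transport control they were −0.53 for autophagy and lysosome, −0.45 for the dystrophin complex and −0.45 for body size. Neurotransmission had −0.22 there, and the others −0.05 to 0.03. For dys-1 flown minus ground was −0.22 ± 0.18 and for ced-1 −0.27 ± 0.15 (limma adjusted p = 0.571 and 0.372), and nothing in the labels states what the alleles do to transcript level. A failed test does not show equal levels.

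The remaining lists had few passing genes, to be read beside 4.28% of all genes passing higher and 1.66% lower. Passing higher and lower were 0 and 3 of 76 cytochrome P450 genes, 0 and 2 of 47 glutathione S-transferases, 0 and 2 of 67 UDP-glucuronosyltransferases, and 0 and 5 of 282 nuclear hormone receptors. Their lower shares were 3.9%, 4.3%, 3.0% and 1.8%. The counts were 3 and 0 of 464 F-box and MATH-BTB genes, 3 and 2 of 59 transthyretin-like genes, 1 and 1 of 36 astacin proteases and 4 and 3 of 92 genes of lipid metabolism. Higher shares there were 0.65%, 5.1%, 2.8% and 4.3%, and lower shares 0%, 3.4%, 2.8% and 3.3%. Of 40 genes of oxidative and metal stress 1 passed higher (2.5%), as did 1 of 32 of carbohydrate and energy (3.1%). So did 1 of 42 of the respiratory chain (2.4%) and 1 of 16 of hypoxia and osmotic stress (6.25%). Of 11 touch receptor genes 1 passed lower (9.1%), and 0 of 11 heterochronic genes passed. With 1 array left out the counts in these lists ran from 0 to 15. The 15 were nuclear hormone receptors passing lower without the N2 transport control. Among members of these lists, ttr-14 had 0.83 ± 0.23 from the ground control and 2.30 ± 0.23 from the transport control, and the fatty acid desaturase fat-3 had −0.83 ± 0.33 and −1.40 ± 0.33.

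**Figure D4:**
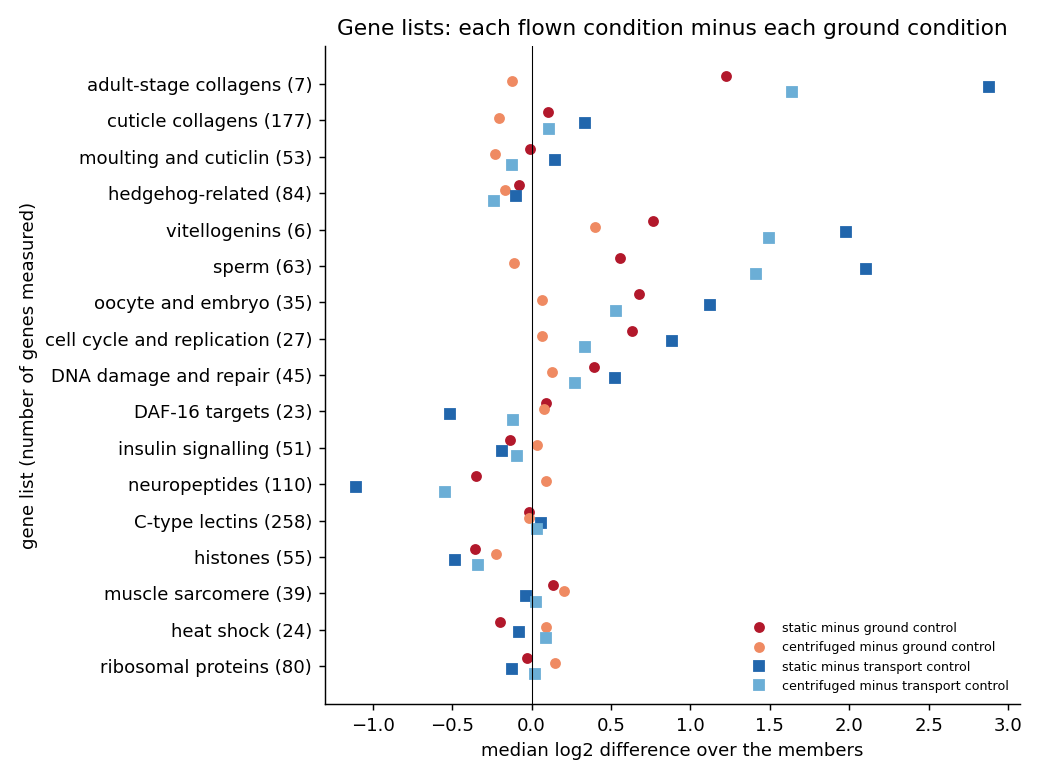
Median log2 difference of the members of each gene list for each flown condition against the ground control (circles) and the transport control (squares), with the number of genes measured in brackets. Squares of adult collagens, vitellogenins and sperm genes lie between 1.42 and 2.88; circles lie nearer 0, with centrifuged flight at −0.13, 0.40 and −0.11.

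Stage markers moved with the conditions. The summed intensity of 4 adult cuticle markers (bli-1, col-19, col-7, rol-6) was 7954 to 22102 in static flight, 7030 to 11732 in centrifuged flight, 4259 to 7595 in the ground control and 1261 to 1600 in the transport control, and 3 of the 4 passed higher in flown minus ground. The exception, rol-6, was also counted among the hypodermis markers below. The 3 dauer markers (col-2, col-40, cut-1) summed to 727 to 3473, 1437 to 3772, 3103 to 6955 and 19847 to 24101, with 2 passing lower. These 3 do not stand for the list of 14 dauer markers, whose median was 0.00 for flown minus ground, 0.08 against the ground control and −0.01 against the transport control. The medians of the adult cuticle sum fall in the same order of conditions as those of col-129, col-143, col-81 and spig-20. The part of these stage differences in the results above was not tested.

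Within static flight the LS292 array had 3473 for the dauer markers, beside 727 in N2 and 985 in MT4930, and 7954 for the adult cuticle markers, beside 18991 and 22102. It lay nearest to the ground control of the 3. Sperm markers, 32 genes of the msp- family with gsp-3 and gsp-4, summed to 110301 to 193563 in static flight, 73500 to 128636 in centrifuged flight, 105240 to 135751 in the ground control and 33591 to 51651 in the transport control, with 29 passing higher. The N2 transport control had 20172 for 4 oocyte markers, beside 3417 and 3266 in the other strains. Markers of body wall muscle (3), intestine (2), neurons (3) and hypodermis (2) held 0 genes past the threshold in flown minus ground. The neuron markers had the lowest sums, 362 to 517 in static flight and 411 to 549 in centrifuged flight. Their sums were 412 to 526 in the ground control and 487 to 859 in the transport control. The median intensity of a single feature was 225.6 to 252.4 per array.

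**Figure D5:**
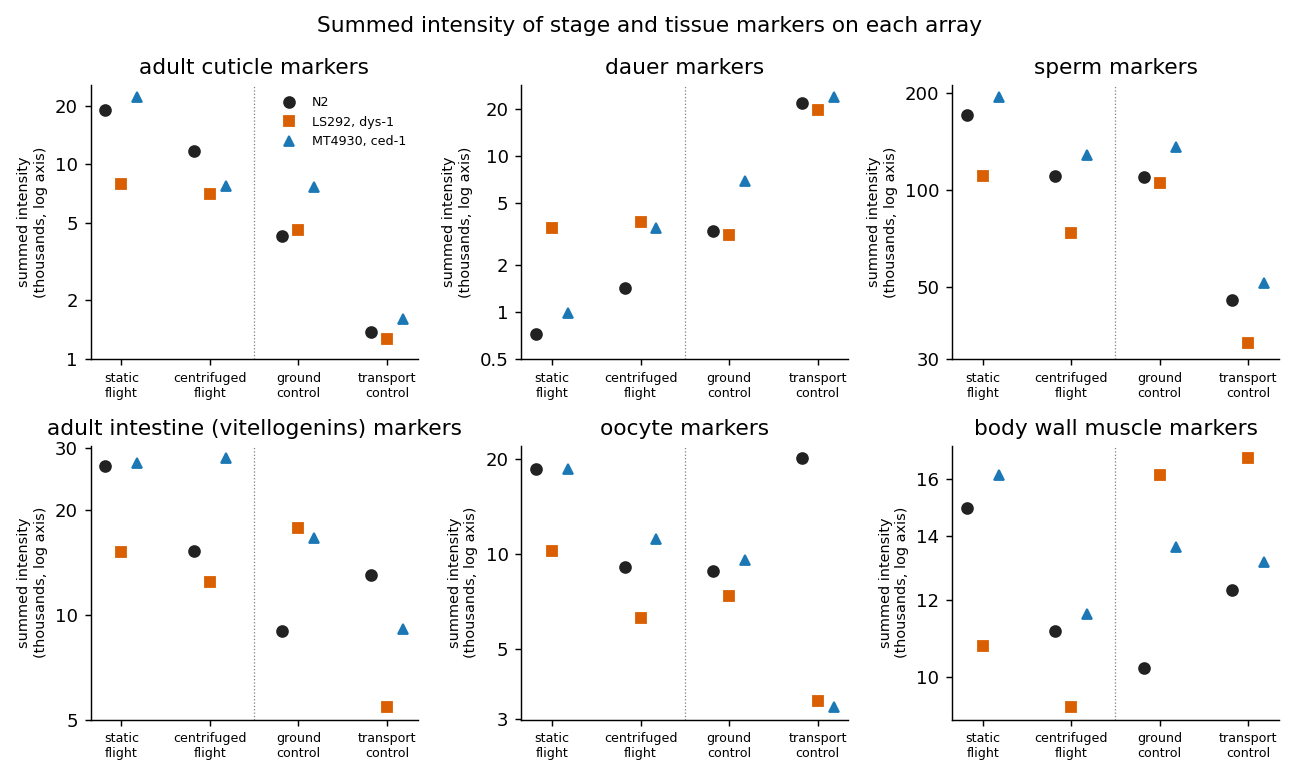
Summed intensity of marker genes on each array (log axis), by condition and strain. Adult cuticle markers are lowest and dauer markers highest in the transport control, and the N2 transport control stands apart for oocyte markers.

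Over all genes, mean intensity per array ran from 1018.9 to 1159.6, apart from the MT4930 ground control at 902.3. Without that array 1078 genes passed flown minus ground and 0 met the whole rule. The number of arrays limits the precision throughout, and the files hold no detection flag, so a low value is not an absent transcript.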

How the data were processed

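Total RNA of 12 samples was measured on 12 single-colour arrays. The deposited intensity of each of 23187 features was made by the authors with RMA (background correction, between-array normalization and probe summary), per the submitters' processing notes; the RMA version and any genome build are not given in the sources used here. This step equalises arrays, so a change in total RNA is not visible. Each feature was summarised from 5 or 6 probes, a number deposited beside it, except 39 from fewer. Intensities (39.8 to 59366.3) were taken to log2 with no offset and averaged per WormBase gene, giving 20018 genes, 2273 with several features. Names came from the RefSeq gene table (19428) or the array file (590).

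Arrays were grouped by the labels' condition. limma 3.58.1 in R 4.3.3 fitted condition (4 levels) and strain to all 12 arrays, with 6 residual and 7.71 prior degrees of freedom, and p-values were adjusted by Benjamini-Hochberg over 20018 genes at 0.05. Strain is the replicate number and is shared by all conditions, so it pairs the arrays. Deviations of same-strain arrays from their condition means correlated at a mean of 0.306 in LS292, 0.0987 in MT4930 and 0.0502 in N2. The interaction was fitted with strain, flown or ground and their product. The steps were tested on simulated data. Alternatives were scaling, offset, a filter on dim genes, variance model, array weights, features, table, coding, block and arrays left out.

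The comparison, the lists and the rule for named genes were chosen with earlier results of these data known. Named were genes meeting the whole rule, the 5 nearest in each direction, the 5 with the smallest p failing against either ground group, and up to 4 members of a list. Genes named beside these (the edge of the threshold, T27E7.1, gmd-2) were chosen after their values were seen. No reference genome was used, so no position or sequence is given.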

Additional observations from a re-analysis of the deposited data

Results flagged for a closer look

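dpy-1 in the N2 array of centrifuged flight, at a log2 intensity of 8.63, lay apart from the other 5 flown arrays, which spanned 8.03 to 8.19; it was still below all ground arrays. This was the 1 such array among 44 checks (22 genes, each over the 6 flown and the 6 ground arrays), where chance gives about 1 in 20.

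T27E7.1 passed flown minus ground (0.64 ± 0.16, limma adjusted p = 0.0319), yet its effect differed between the flown conditions. It was at 13.23, 12.20 and 13.49 in static flight, 10.44, 9.93 and 10.88 in centrifuged flight, 12.02, 11.87 and 12.28 in the ground control and 10.05, 9.69 and 10.40 in the transport control. Static minus centrifuged flight was 2.55 ± 0.23, the same way in 3 of 3 strains (limma adjusted p = 0.00059). That contrast chose the gene, so the shared direction is no support. Against the ground control, static flight was higher by 0.92 and centrifuged flight lower, at −1.64.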

How the results depend on the processing

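Counts of genes depended on coding, variance model and single arrays. For flown minus ground (1189 genes), 440 passed without variance moderation, 182 with centrifuged flight as the only flown condition, 575, 665 and 485 without N2, LS292 or MT4930, and 0 with flown or ground as 1 factor; leaving out 1 array gave 646 to 1622. For flown minus transport control (2506), the values were 1110 without moderation, 927 with centrifuged flight alone, and 1265 and 1030 without LS292 or MT4930; single arrays gave 1066 to 2812. For flown minus ground control (8), 42 passed with static flight alone, 12 with trended and robust variance, 4 with an offset of 50, 1 without moderation, without N2, without MT4930 or with 1 factor, and 2 with quantile normalization, median centring, the dimmest 30% of genes left out, array weights or strain as a random block; single arrays gave 1 to 18. Genes meeting the whole rule (5) numbered 39 with static flight alone, 2 with centrifuged flight alone or an offset of 50, 8 with trended and robust variance, 1 in each other setting that gave 2 above, 1 without moderation (C03B1.14, not among the 5) and 1 with all 4 single contrasts passing, 0 without N2, without MT4930, with 1 factor or with the larger p adjusted once, 546 by unadjusted p, and 0 to 17 over single arrays. Without LS292 they numbered 6, with col-143 alone shared. Static minus centrifuged flight gave 3 in place of 1 with trended and robust variance and 1 to 3 over single arrays, and ground minus transport control gave 493 to 1783. Without the replicate block (strain left out, which pairs the arrays), 798, 2 and 1875 genes passed flown against ground, ground control and transport control, and 1 met the whole rule. F26A1.8 against the transport control, at 0.00, changed sign in 10 settings, at −0.0204 (quantile), −0.0104 (median centring), −0.00491 (weights), −0.0705 (without N2), −0.0252 (without MT4930), −0.154 (static flight alone), and from −0.136 to 0.175 over single arrays. Of the named genes' other comparisons under these settings, 3078 kept their direction and stayed as in the main fit, whether passing or not passing. A further 748 lost the call and 21 gained it. Except by construction of fewer arrays or another spread, the cause was not tested. Low values have no detection call, and 3 arrays a condition limit the precision.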

Other observations

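A few numbered gene families that no list holds were picked after their values were seen, so their counts carry no test, and they were not recounted with an array left out. In the higher direction, 4 of 12 nspb genes met the wider tier (adjusted p under 0.05 in flown minus ground with an unadjusted p under 0.05 against each ground group), beside 2.06% of all genes. In the lower direction it held 3 of 8 phat genes and 4 of 16 nspc genes, beside 0.669% of all genes.

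Against the ground control alone, 3 genes were lower after flight: F26A1.8, dpy-1 and gmd-2, which encodes an enzyme of GDP-fucose synthesis. gmd-2 was chosen after its values were seen. It differed by −1.32 from the ground control (limma adjusted p = 0.0446) and by 0.88, the opposite way, from the transport control (adjusted p = 0.012), and its difference from the ground mean, −0.22, did not pass.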
